A study of Mus musculus with 94 samples.

Results

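The transcripts of 10 chemokine and cytokine genes, *Cxcl1*, *Cxcl12*, *Cxcl13*, *Cxcl14*, *Ccl2*, *Ccl7*, *Ccl11*, *Il6*, *Il33* and *Csf1*, were examined in single PV-ADSCs (perivascular adipose tissue-derived stem cells). The genes were taken as a given list, chosen with earlier results of these data known. All 10 had a row among the 16069 genes of the deposited table. The cells were described over the whole table and as 2 groups parted by *Dcn*, the gene of the matrix proteoglycan decorin. Of 85 cells in the table, 58 had a *Dcn* value of at least 1000 and are called stromal cells here, and 27 lay under it and are called other cells. No chemokine or cytokine gene was used to part them.

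All cells came from the peri-aortic fat of c57/bl mice aged 8 weeks, freed with collagenase I, sorted as CD144-/CD45-/CD29+/Sca1+ and sequenced as 1 SMART-seq v4 library per cell, without culture or treatment. The labels describe 94 cells and name no animal for any of them. The cells were therefore treated as 1 sample, and no test between cells was computed. The sort removed cells carrying CD144 (the product of *Cdh5*) or the leukocyte antigen CD45, so the levels describe the sorted cells and not the whole fat depot.

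Chemokines are small secreted proteins that guide the movement of leukocytes through receptors on their surface. They are grouped by the spacing of their first cysteines into a CXC and a CC family. *Cxcl1* draws neutrophils, *Cxcl12*, *Cxcl13* and *Cxcl14* are best known as homeostatic chemokines, *Ccl2* and *Ccl7* draw monocytes, and *Ccl11* (eotaxin) draws eosinophils. *Il6* encodes a cytokine of the acute-phase response, *Il33* a nuclear alarmin of the IL-1 family that acts on type 2 lymphocytes and mast cells, and *Csf1* the growth factor of macrophages. Fibroblast-like cells of fat and of the vessel adventitia are a known source of several of these proteins.

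The *Dcn* values left a wide gap between the groups. The lowest value in a stromal cell was 6521 and the median 93093, whereas the highest value in an other cell was 269. At least 3 of 15 endothelial markers reached 100 reads in 24 of the 27 other cells and in 1 of the 58 stromal cells. *Cdh5* itself was above 0 in 23 other cells, although the sort had selected against its product. Macrophage and monocyte markers were nearly lacking, with 3 of 11 having a row and a median summed level of 0 CPM (counts per 1000000 recovered reads) in both groups, a range of 0 to 703 CPM in stromal cells, and 0 CPM in every other cell. *Adgre1*, *Lyz2* and *C1qa* were not among those rows, and none of 10 lymphocyte markers had one. Each cell had between 1146945 and 4776510 recovered reads. The median depth was 2963854 reads in stromal and 2714449 in other cells, but the median number of genes above 0 was 2813 in stromal and 1416 in other cells. Other cells had 285 to 2278 genes above 0. Of these, cells 67, 13 and 89 had 285, 377 and 405 genes, with 0, 1 and 0 endothelial markers at 100 reads. They are counted among the 27 other cells in the shares below. One stromal cell, cell 50, stood apart. Its *Dcn* value of 6521 stood for 69 reads multiplied by a scaling factor of 94.5, none of 7 other stromal genes (*Col1a1*, *Col3a1*, *Pdgfra*, *Lum*, *Serping1*, *Clec3b* and *Lrp1*) reached 100 reads in it, and it had the fewest reads. Without it the lowest *Dcn* value of a stromal cell was 11185 and the fewest reads of any cell were 1428530. Of the 10 genes it held *Cxcl13* and *Il33*, with 4 reads of each, and the shares and differences of these genes are given with and without it.

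Shares below are of cells with a value above 0, with exact Clopper-Pearson 95% intervals that cover counting error only. Reads are the whole reads recovered from the deposited values. The deposited values of *Ccl7*, *Il6*, *Csf1*, *Cxcl13* and *Cxcl14* were unscaled reads, not adjusted for depth. Those of the other members were reads multiplied by a factor per cell, so the deposited levels of the members are not in 1 common unit. As the reads carry no molecular identifiers, they are not independent molecules.

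The sequences before the transcription starts of *Cxcl1*, *Il6* and *Csf1* are shown because these were the members whose 250 bases before a start held a match to the NF-κB consensus. RefSeq starts (GRCm38.p6) were at hand for 7 of the 10 members, and *Ccl2*, *Ccl7* and *Ccl11* were not among them. Capitals mark the match, both strands were searched, and each sequence runs 5′ to 3′ on the strand of the gene. The matched letters in *Cxcl1* (chr5:90890995-90891244, plus strand) read as a match on either strand, overlapping by all but 1 base, and began 71 bases before the start. The match in *Il6* (chr5:30012864-30013113, plus strand) began 44 bases before the start. That in *Csf1* (chr3:107760470-107760719, minus strand) lay on the opposite strand, 154 bases before the start.
Cxcl1: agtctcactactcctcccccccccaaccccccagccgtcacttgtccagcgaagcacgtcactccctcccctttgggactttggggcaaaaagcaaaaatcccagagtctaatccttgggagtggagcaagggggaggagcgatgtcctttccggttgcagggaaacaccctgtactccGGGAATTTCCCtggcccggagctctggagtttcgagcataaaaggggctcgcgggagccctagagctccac
Il6: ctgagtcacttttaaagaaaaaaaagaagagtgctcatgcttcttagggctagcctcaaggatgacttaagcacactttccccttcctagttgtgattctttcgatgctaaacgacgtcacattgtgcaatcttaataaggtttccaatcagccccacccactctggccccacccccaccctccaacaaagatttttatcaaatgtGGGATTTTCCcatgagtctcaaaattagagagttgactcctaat
Csf1: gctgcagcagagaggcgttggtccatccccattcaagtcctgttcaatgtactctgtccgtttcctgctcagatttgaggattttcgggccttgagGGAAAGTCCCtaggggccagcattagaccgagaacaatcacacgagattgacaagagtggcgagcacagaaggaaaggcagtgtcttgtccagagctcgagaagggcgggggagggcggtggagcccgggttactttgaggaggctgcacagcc
Among 32851 RefSeq starts of the same length, 7.25% held such a match. The AP-1 motif TGANTCA was found in 6.75% of all starts and, among the members, only before *Il6*, where it began 249 bases before the start. No match to the NF-κB consensus was found in the windows of *Cxcl12*, *Cxcl13*, *Cxcl14* or either start of *Il33*, which says only that these letters were not in these windows. The matches are descriptions of sequence and no binding was measured.

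As the members were chosen with earlier results of these data known, their contrasts with all genes below are descriptions only. Of the 10 genes, 9 were above 0 in a larger share of stromal than of other cells, and *Cxcl12* was the exception. Of 11478 genes above 0 in at least 3 cells, 85.1% also had the larger share in stromal cells, so that count is near the background. On the log2(value + 1) scale, the mean was higher in stromal cells by at least 1 for 8 members against 35.6% of all genes, and by at least 4 for 4 members (*Cxcl1*, *Ccl11*, *Il33* and *Csf1*) against 4.38% of all genes. Among genes above 0 in at least 10 cells, as 8 of the members were, these percentages were 60.3% and 8.21%. Without cell 50 the first count was 7, as *Cxcl13* lay at the limit (1.004 with the cell and 0.98 without it). The count at 4 changed with the pseudocount. With 10, *Il33* (4.16) passed, but *Cxcl1* (3.44), *Ccl11* (3.50) and *Csf1* (3.58) did not, against 1.34% of all genes. With 0.1, *Ccl7* (4.52) and *Il6* (4.34) passed as well, against 9.20% of all genes. The median difference was 3.44 over the members, 0.64 over all genes tested and 1.32 over genes above 0 in at least 10 cells. One member, *Cxcl12*, was higher in other cells by at least 1, as were 2.84% of all genes. Its difference of -1.30 fell short of that limit with a pseudocount of 10 (-0.83), with a *Dcn* minimum of 100 (-0.65) and with stromal cells taken as those with at least 4 of the 7 stromal genes at 100 (-0.69). It was -1.06 on log2(CPM + 1), -1.75 with a pseudocount of 0.1 and -1.78 without cells of fewer than 1000 genes.

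**Figure D1:**
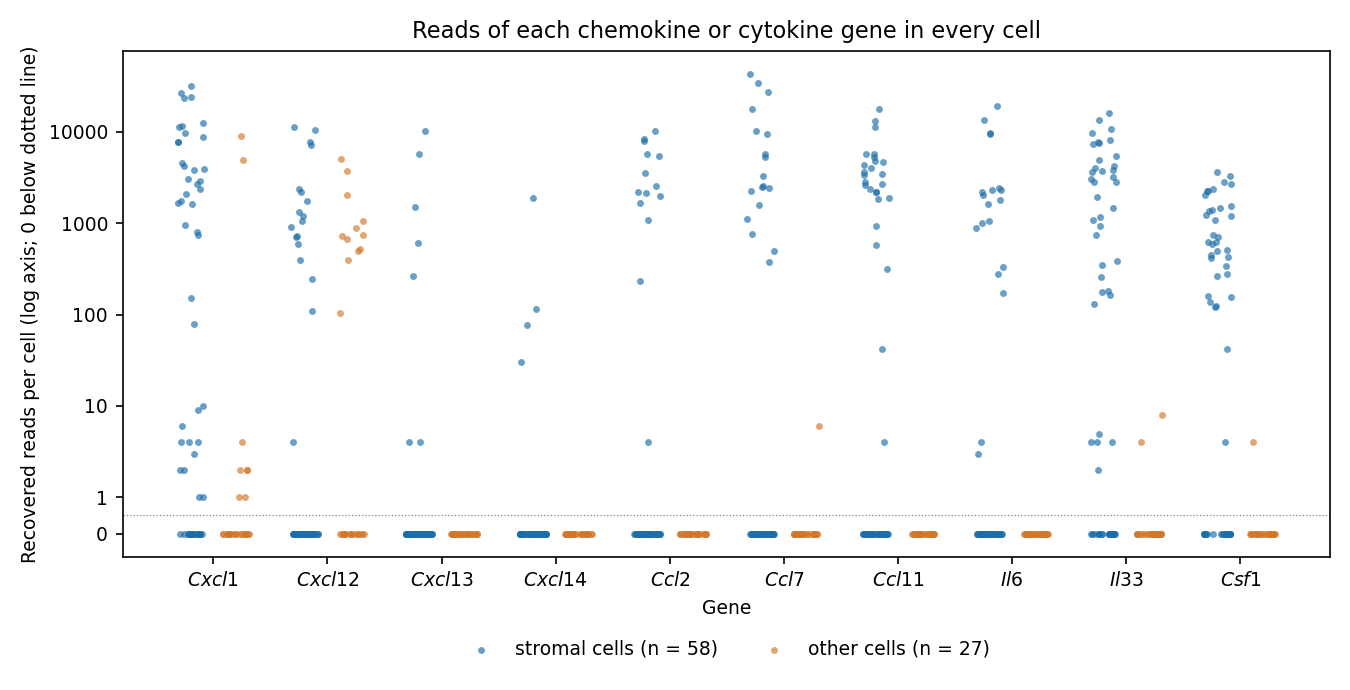
Recovered reads of each gene in each cell on a log axis, with cells at 0 drawn below the dotted line and points spread sideways for legibility; blue points are the 58 stromal and orange points the 27 other cells. Apart from *Cxcl12* and 2 cells with *Cxcl1*, no other cell exceeded 8 reads of any of the 10 genes.

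Among the CXC chemokines, *Cxcl1* was the most widely detected. It was above 0 in 39 of 58 stromal cells (67.2%, interval 53.7 to 78.99) and in 8 of 27 other cells (29.6%, interval 13.8 to 50.2). In the stromal cells that held it, reads ranged from 1 to 31354 with a median of 2081. The range was split, since 27 stromal cells held at least 100 reads and 10 held fewer than 10. Of the 8 other cells, 6 held between 1 and 4 reads, while cell 76 held 9068 and cell 83 held 4896. Those 2 cells carried 9 and 3 endothelial markers at 100 reads and none of the 7 stromal genes. The mean log2 level was 6.15 ± 5.83 (SD, n = 58 cells) in stromal and 1.36 ± 3.40 (SD, n = 27 cells) in other cells, a difference of 4.79. The few-read cells move the share, not the order of the groups. With at least 100 reads required, the shares were 46.6% and 7.41%.

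*Cxcl12*, the ligand of CXCR4 and ACKR3, had the opposite order. It was above 0 in 12 of 27 other cells (44.4%, interval 25.5 to 64.7) and in 18 of 58 stromal cells (31.03%, interval 19.5 to 44.5), so that the intervals overlapped. The 12 other cells held 104 to 5031 reads (median 731.5) and the 18 stromal cells 4 to 11309 reads (median 1130). Unlike *Cxcl1*, the gene gave no few-read cells in the other group, and its levels where present overlapped between the groups. All 12 of these other cells had at least 3 endothelial markers at 100 reads, and none had a stromal gene of the 7 at that level. The mean log2 level was 3.10 ± 4.88 (SD, n = 58) in stromal and 4.40 ± 5.11 (SD, n = 27) in other cells, a difference of -1.30. Stromal cells, 58 of the 85 cells, held 75.4% of the *Cxcl12* reads of the table, against 93.8% of those of *Cxcl1*.

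*Cxcl13*, which guides B cells, and *Cxcl14* were rare. *Cxcl13* was above 0 in 7 stromal cells (12.1%, interval 4.99 to 23.3), with 10063, 5738, 1492, 599, 261, 4 and 4 reads. A single cell thus held 55.4% of its reads. One of the cells with 4 reads was cell 50, and without it the share was 6 of 57 cells. *Cxcl14* was above 0 in 4 stromal cells (6.90%, interval 1.91 to 16.7), with 1880, 116, 76 and 30 reads, and 1 cell held 89.4% of its reads. Neither gene was above 0 in an other cell, where 0 of 27 cells allows a share of up to 11.1% as 3 cells of the total and up to 12.8% by the exact interval. The intervals of the groups overlapped for both genes.

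The CC chemokines were found almost wholly in stromal cells. *Ccl2* was above 0 in 14 stromal cells (24.1%, interval 13.9 to 37.2) with 4 to 10262 reads and a median of 2374.5, and 13 of them held at least 100 reads. *Ccl7* was above 0 in 18 stromal cells (31.03%, interval 19.5 to 44.5), and each of them held between 377 and 42976 reads with a median of 2900.5. It was a gene of all or nothing in these cells, without a stromal cell between 0 and 377 reads. Its only other cell held 6 reads. *Ccl11* was the most widespread of the CC chemokines, above 0 in 26 stromal cells (44.8%, interval 31.7 to 58.5) with 4 to 17899 reads and a median of 3073. *Ccl2* and *Ccl11* were above 0 in none of the 27 other cells, which sets the same limits. The differences in mean log2 level were 2.65 for *Ccl2*, 3.61 for *Ccl7* and 4.96 for *Ccl11*.

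Among the cytokines, *Il6* was above 0 in 19 stromal cells (32.8%, interval 21.01 to 46.3) and in none of the other cells. Of these 19 cells, 17 held between 174 and 18970 reads and the rest held 3 and 4 reads. *Il33* was above 0 in 37 stromal cells (63.8%, interval 50.1 to 76.01) with 2 to 15993 reads and a median of 2808. It had 32 stromal cells at 132 reads or more and 5 at 5 reads or fewer. In 2 other cells it had 4 and 8 reads. The scaling of *Il33* was the widest of the members, as its deposited values were the reads multiplied by factors of 0.0409 to 75.5, so a value of 302 in cell 50 stood for 4 reads. Without cell 50 the share was 36 of 57 cells (63.2%). *Csf1* was above 0 in 35 stromal cells (60.3%, interval 46.6 to 72.95) with 4 to 3613 reads and a median of 617, and in 1 other cell with 4 reads. The differences in mean log2 level were 3.27 for *Il6*, 6.0 for *Il33* (5.97 without cell 50) and 5.47 for *Csf1*. No other cell reached 10 reads of any of the 3 cytokines.

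**Figure D2:**
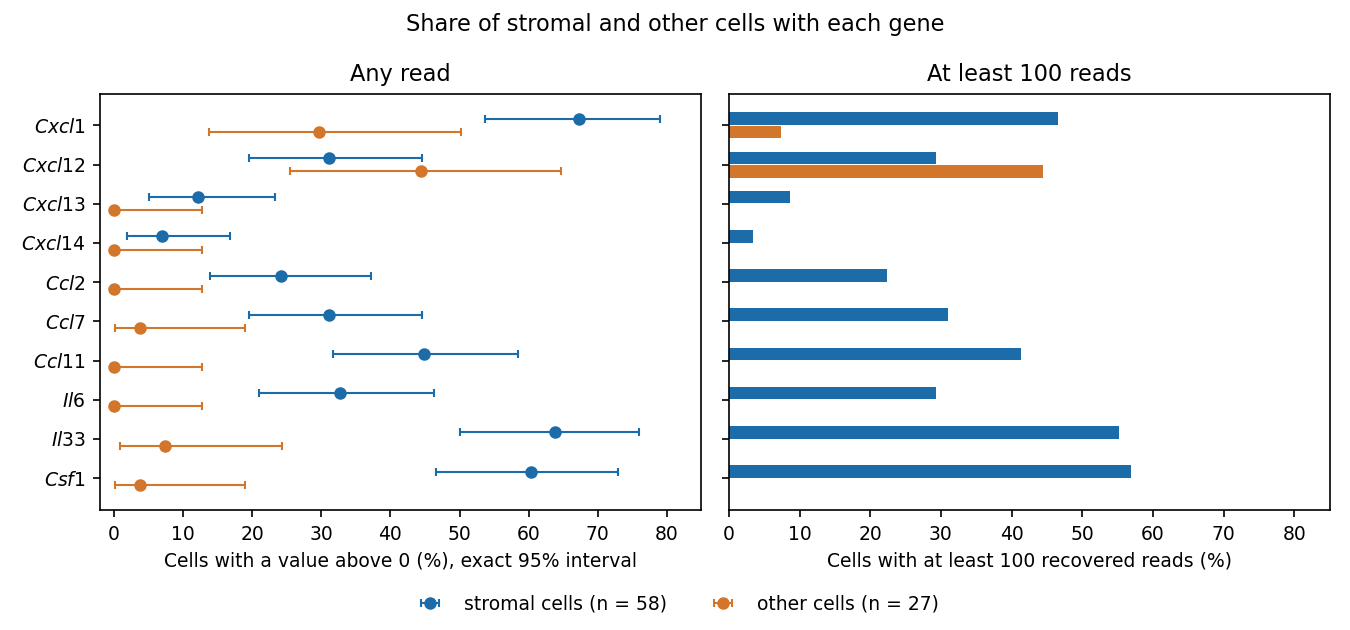
Percentage of the 58 stromal (blue) and 27 other cells (orange) with a value above 0, with exact 95% intervals as bars (left), and with at least 100 recovered reads (right). At 100 reads, *Cxcl1* in 2 cells and *Cxcl12* in 12 cells were the members left in other cells.

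By share of stromal cells the order was *Cxcl1*, *Il33*, *Csf1*, *Ccl11*, *Il6*, *Cxcl12* and *Ccl7* (equal), *Ccl2*, *Cxcl13* and *Cxcl14*, and the intervals of every pair of neighbours overlapped. Levels in the cells that held a gene were compared per length, as median CPM per kilobase of exon. The length was that of the exons of all transcripts of a gene merged, and cells with few reads were included. *Ccl7* was highest at 1399, followed by *Ccl11* at 971 and *Ccl2* at 957. *Cxcl1* had 367, *Il33* 241, *Il6* 232 and *Cxcl13* 184, whereas *Cxcl12*, *Csf1* and *Cxcl14* had 49.6, 45.9 and 20.1. The 2 orders differed. *Ccl7* was present in fewer stromal cells than *Csf1*, but at a higher level per length where present, and the ranges over cells overlapped (202 to 19179 for *Ccl7* and 0.27 to 293 for *Csf1*). By the mean over all stromal cells, *Cxcl1* (706) lay between *Ccl7* (1334) and *Ccl11* (599), with *Ccl2* at 324. A few cells carried much of each gene. The number of cells that together held 50% of the reads of a gene was 3 for *Ccl7* and *Il6*, 4 for *Cxcl12* and *Ccl2*, 5 for *Cxcl1*, 6 for *Ccl11* and *Il33* and 7 for *Csf1*.

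A stromal cell held a median of 3.5 of the 10 genes, with a range of 0 to 9, and an other cell a median of 1, with a range of 0 to 2. One stromal cell held none, 4 held 1, 12 each held 2 and 3, 11 held 4, 8 held 5, 3 held 6, 6 held 7 and 1 held 9. Without cell 50 the median was 4 in stromal cells. Spearman's rank correlation of the number of members with the number of genes above 0 was 0.27 over the 58 stromal cells, 0.48 over the 27 other cells and 0.67 over all 85 cells, and with recovered reads it was -0.08, -0.12 and 0.09. Other cells had fewer genes above 0 in all, and the part of this gap in the lower number of members was not tested.

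The members were combined unevenly over the stromal cells. Over the 28 pairs of the 8 members found in at least 10 stromal cells, rank correlation of the deposited values was above 0 in 18 pairs, with a median of 0.14. As the 2 genes of a pair share the library and its depth, these values are descriptions. The highest was that of *Cxcl1* and *Il6* at 0.62. Of the 19 cells with *Il6*, 18 also held *Cxcl1*, against 21 of the 39 cells without *Il6*. In 15 cells both reached 100 reads. *Ccl2* and *Ccl7* had a rank correlation of 0.48, as 9 of the 14 cells with *Ccl2* held *Ccl7*, against 9 of the 44 cells without *Ccl2*. In the RefSeq annotation (GRCm38.p6) *Ccl2*, *Ccl7* and *Ccl11* lie next to each other on chromosome 11 with 0 genes between neighbours. *Ccl7* and *Ccl11*, the other neighbouring pair, had a rank correlation of 0.01, with *Ccl11* in 8 of 18 cells with *Ccl7* and 18 of 40 cells without it. *Ccl11* shared more cells with *Cxcl12* (13 of 18 cells with *Cxcl12* against 13 of 40 without, rank correlation 0.43).

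*Il33* stood apart from the rest. Its rank correlation was under 0 with each of the other 7 members, and lowest with *Cxcl1* at -0.32 (-0.34 on CPM of recovered reads). It was above 0 in 21 of the 39 cells with *Cxcl1* and in 16 of the 19 cells without. Counted at 10 reads, *Cxcl1* was in 29 and *Il33* in 32 of the 58 stromal cells, and 13 cells held both. Of *Cxcl1*, *Ccl2*, *Ccl7* and *Il6*, a set formed after the pairs had been seen, 14 stromal cells held none, 15 held 1, 16 held 2, 9 held 3 and 4 held all 4. *Il33* was above 0 in 11, 11, 11, 2 and 2 of these cells in the same order, which restates the pairs and is no separate support. Without cell 50, 15 of 18 cells without *Cxcl1* and 10 of 13 cells with none of the 4 genes held *Il33*.

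The 4 cells with *Cxcl14* were the 4 cells with the most *Cxcl1* reads of all 85 cells. In these cells, numbered 77, 81, 63 and 46, *Cxcl1* had 31354, 26381, 23701 and 23487 reads, and the next cell had 12490. *Il6* had 18970, 13261, 9703 and 883 reads and *Ccl11* had 17899, 5685, 13242 and 1899 reads in the same order. *Cxcl12* was above 0 in all 4 and *Il33* in none. They held 7, 7, 7 and 9 of the 10 genes, had 3007 to 4028 genes above 0, and carried no endothelial marker at 100 reads. In CPM of *Cxcl1* the same 4 cells were highest, with 6725 in cell 63 against 5576 in cell 5. By the deposited value of *Cxcl1*, cells 15 (19206) and 5 (17652) exceeded cell 63 (17472.5), so the match did not hold on that scale. The match by reads was seen after the values were known and was not tested.

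**Figure D3:**
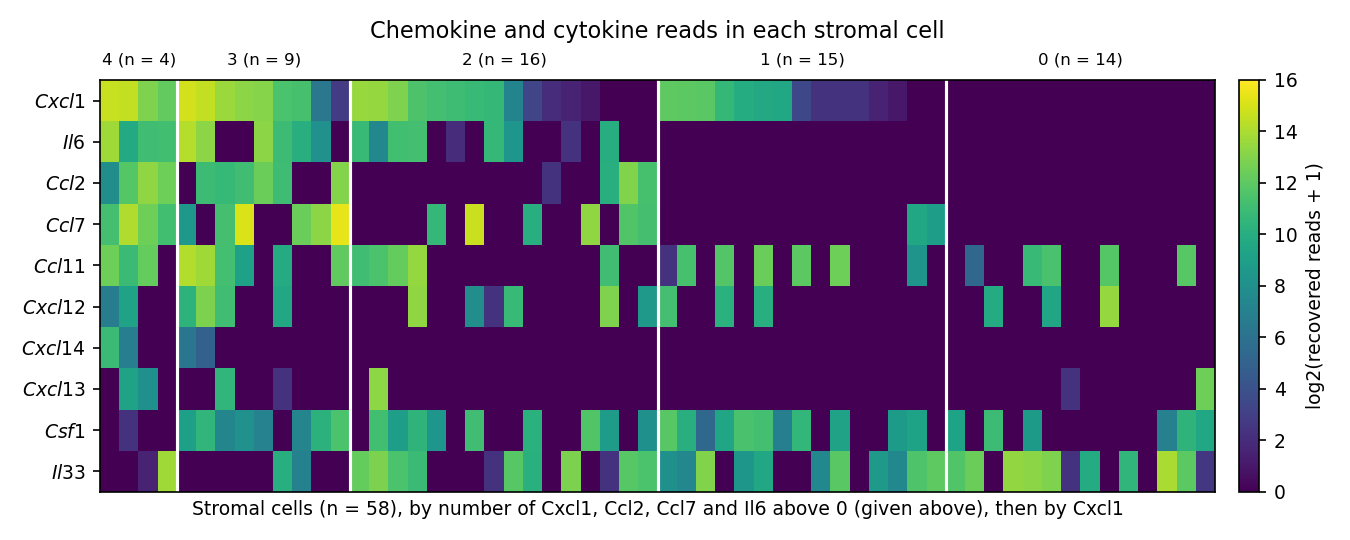
Log2(recovered reads + 1) of the 10 genes (rows) in the 58 stromal cells (columns), ordered by how many of *Cxcl1*, *Ccl2*, *Ccl7* and *Il6* were above 0 (numbers above the panels) and then by *Cxcl1*; dark is 0. *Cxcl14* appears only in columns with 3 or 4 of these genes, and *Il33* is above 0 in 11 of the 14 columns with none of them, 2 of the 9 with 3 and 2 of the 4 with all 4.

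**Figure D4:**
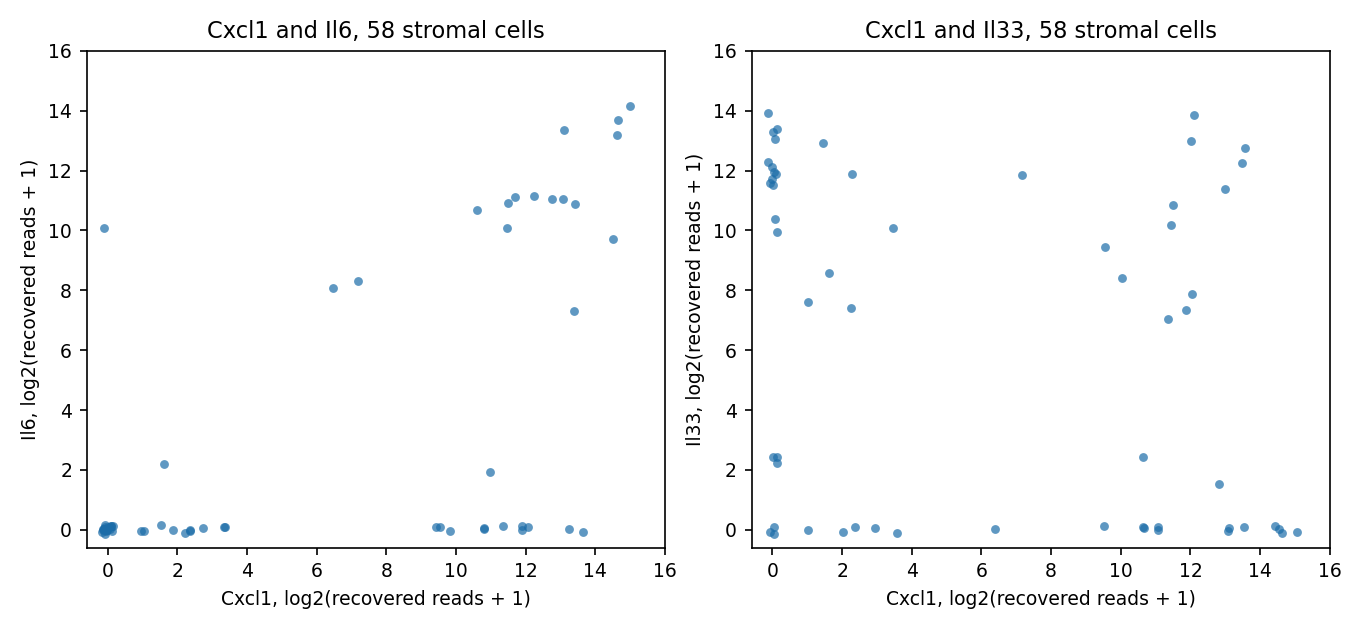
Each point is 1 of the 58 stromal cells, with *Cxcl1* on the x axis and *Il6* (left) or *Il33* (right) on the y axis, both as log2(recovered reads + 1) and moved by a small random amount so that cells at 0 can be seen. All but 1 of the 19 cells with *Il6* also held *Cxcl1*, whereas 16 of the 19 cells without *Cxcl1* held *Il33*.

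The genes most like each member over the 58 stromal cells, by rank correlation among 5383 genes found in at least 10 of them, included other members. For *Cxcl1* they were *Il6* (0.62), *Hk2* (0.60, hexokinase 2) and *Socs3* (0.59, a feedback inhibitor of cytokine signaling). For *Il6* they were *Cxcl1*, *Myc* (0.57) and the complement protease gene *C1rb* (0.55). For *Ccl2* they were the IL-1 receptor *Il1r1* (0.55), *Pxn* (0.52) and the adhesion molecule *Vcam1* (0.49), and *Vcam1* was above 0 in 7 of 14 cells with *Ccl2* and 3 of 44 without. For *Ccl11*, *Il1r1* was again among the 3 (0.51), after *Ube2l6* (0.53) and *Pnp* (0.51). *Cxcl12* went with *Col4a2* (0.65, a basement membrane collagen), *Gm18025* (0.64) and *Steap4* (0.63). *Ccl7* went with *Gm17709* (0.53), *Col5a2* (0.49) and *Aebp2* (0.48). *Il33* went with *Clock* (0.51), *Gm8069* (0.50) and *Wdr60* (0.48), and *Csf1* with *Rpl30* (0.45), *Gnas* (0.43) and *Gm2308* (0.42), so the values for *Csf1* were the lowest. Each is the highest of many such values and carries no test. *Gm* names mark predicted gene models, whose reads may be shared with similar sequences elsewhere.

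Few receptors of the members were read in these cells. Of 15 receptor genes 5 had a row, and *Cxcr4*, the signaling receptor of CXCL12, was not among them. *Ackr3*, the scavenging receptor of CXCL12, was above 0 in 44 stromal and 2 other cells. It was above 0 in 11 of the 18 stromal cells with *Cxcl12* and in 33 of the 40 without (rank correlation -0.34). It was also above 0 in 33 of the 37 stromal cells with *Il33* and in 11 of the 21 without (rank correlation 0.41). *Il6st*, the gene of the signal-transducing chain gp130 of the IL-6 receptor, was above 0 in 48 stromal and 10 other cells. It was above 0 in all 19 stromal cells with *Il6* and in 29 of the 39 without (rank correlation 0.04). *Il6ra*, the ligand-binding chain, was above 0 in 8 stromal cells, 2 of which held *Il6*. *Csf1r* was above 0 in 1 stromal cell and *Ackr1*, a receptor that binds chemokines without signaling, in 10 stromal and 2 other cells.

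Other chemokines and cytokines were counted from lists. Of 30 other chemokines listed, 12 had a row, and of the 5 above 0 in at least 3 cells 2 were higher in stromal and 1 in other cells by at least 1, against 35.6% and 2.84% of all genes. *Cxcl9*, a chemokine induced by interferon-γ, was above 0 in 13 other cells and 4 stromal cells (difference -4.92). The member in the most other cells, *Cxcl12*, was above 0 in 12, and at 100 reads each of the 2 genes was in 12 other cells. *Cxcl12* and *Cxcl9* were both above 0 in 6 other cells. *Cxcl16* was above 0 in 13 stromal cells and *Cxcl10* in 9 stromal and 2 other cells. *Ccl19* was above 0 in 14 stromal cells, none of which reached 100 reads. Of 31 other cytokines and growth factors 18 had a row. *Kitl*, the ligand of KIT, was above 0 in 21 stromal and 14 other cells (difference -2.25), and *Mif* in 22 and 6 cells. *Tnfsf12* was above 0 in 20 stromal and 1 other cell, *Il17d* in 12 stromal cells and *Flt3l* in 11 stromal cells. *Flt3l*, the ligand of the dendritic cell receptor FLT3, was above 0 in 10 of 37 stromal cells with *Il33* and in 1 of 21 without.

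All 18 genes of a list of NF-κB feedback and target genes had a row, and 7 of the 17 above 0 in at least 3 cells were higher in stromal cells by at least 1, against 35.6% of all genes. The most widespread in stromal cells were *Nfkbia*, the inhibitor of NF-κB, and *Tnfaip6*, each in 40 cells, followed by *Nfkbiz* in 35, *Nfkb1* in 20 and *Ptgs2* in 19 cells. In other cells they were *Nfkbiz* in 11, *Nfkbia* in 8, and *Icam1* and *Sod2* in 5 cells each. *Nfkbiz* was above 0 in 17 of 19 stromal cells with *Il6* and in 18 of 39 without, and in 28 of 39 with *Cxcl1* and 7 of 19 without. Of the same 39 cells with and 19 without *Cxcl1*, *Nfkbia* was above 0 in 27 and 13 and *Tnfaip6* in 29 and 11. *Nfkb1* was above 0 in 17 and 3 of them, and *Ptgs2* in 12 and 7. The summed level of the list had a median of 1710 CPM in stromal cells with *Cxcl1* and 640 CPM in those without, and of 3691 and 967 CPM for *Il6*. For *Ccl2* the medians were 4150 and 880 CPM, and for *Il33* they ran the other way, with 792 CPM in cells with it and 4174 CPM in cells without. The rank correlation with the summed level was 0.55 for *Cxcl1*, 0.46 for *Ccl2*, 0.41 for *Il6*, 0.23 for *Ccl7*, 0.21 for *Cxcl12*, 0.11 for *Ccl11*, -0.07 for *Csf1* and -0.40 for *Il33*.

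The cells had been freed with collagenase, and genes known to respond to tissue dissociation were read at high levels in both groups. The summed level of 18 such genes had a median of 18028 CPM in stromal cells (range 80.2 to 53407) and 20892 CPM in other cells (range 3.56 to 40520). Of the 18, 13 were higher in stromal cells by at least 1, against 60.3% of genes above 0 in at least 10 cells. Another 2, *Hspa1a* and *Hspa1b*, were higher in other cells by at least 1, against 2.84% of genes above 0 in at least 3 cells. The most widespread in stromal cells were *Jun*, *Junb*, *Jund* and *Egr1*, each in 57 cells, and *Zfp36* in 54, and in other cells *Junb*, *Jund* and *Zfp36*, each in 25 cells. The median summed level was 20870 CPM in stromal cells with *Cxcl1* and 9506 CPM in those without, and 23678 and 13874 CPM for *Il6*. It was 23584 and 13792 CPM for *Cxcl12*, 23297 and 17643 CPM for *Ccl2*, 21432 and 14834 CPM for *Csf1*, 20717 and 18028 CPM for *Ccl7*, 18028 and 18107 CPM for *Ccl11*, and 17296 and 23014 CPM for *Il33*. *Atf3*, a stress-induced transcription factor, was above 0 in 28 of 39 cells with *Cxcl1* and 6 of 19 without, and *Fosb* in 36 and 12 cells. The part of the response to isolation in the levels of the members was not tested.

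Several complement genes, whose products are also secreted, were found in more stromal cells than any member. Of 9 listed, 7 had a row, and all 7 were higher in stromal cells by at least 1. Among genes above 0 in at least 10 cells, as all 7 were, 60.3% passed this limit. *C3* was above 0 in 55, *C1ra* in 51 and *C1s1* in 50 of 58 stromal cells, and the regulator *Serping1* in 52. *C4b* and *Cfb* were above 0 in 19 and 18 stromal cells, fewer than several members. The most widespread member, *Cxcl1*, was found in 39.

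The members were also counted by *Pi16*, *Wt1*, *Pdgfrb* and *Cd34* in the stromal cells, without a test, and the genes given were picked after the counts were seen. *Ccl2* was above 0 in 8 of 45 stromal cells with *Pi16* and in 6 of 13 without, and *Cxcl14* in 1 and 3 of them. *Ccl11* was above 0 in 5 of 20 stromal cells with *Wt1* and in 21 of 38 without. *Cxcl1* was found in like shares on both sides, in 30 of 45 cells with and 9 of 13 cells without *Pi16*, and in 14 of 20 cells with and 25 of 38 cells without *Wt1*. *Ccl7* was above 0 in 14 of 45 cells with and 4 of 13 cells without *Pi16*, and *Cxcl12* in 6 of 20 cells with and 12 of 38 cells without *Wt1*. By *Pdgfrb*, *Ccl2* was above 0 in 2 of 19 cells with and 12 of 39 cells without it, and by *Cd34*, *Il6* was above 0 in 15 of 38 cells with and 4 of 20 cells without it.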

How the data were processed

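Single PV-ADSCs of 1 condition were read as 1 library per cell. After FastQC, the authors aligned reads with HiSat2 2.0.5 (genome mm9), used SamTools 1.4 and StringTie 1.3.3, and used scater to keep cells with over 800000 aligned reads and to scale values by its default normalization. The counting program is not given in the sources used here. The deposited unit is a signal of normalized read counts. Genes above 0 in fewer than 10 cells were left whole by the authors, and the others fell into 14 groups of genes, 1 left unscaled and 13 multiplied by a factor per cell. *Ccl7*, *Il6* and *Csf1* were in the unscaled group. Scaling by groups of genes is not described in the sources used here. Dividing by factors found from the values returned whole reads for 100% of 165973 values, although 20 factors rest on fewer than 10 values. The step was tested on simulated reads.

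Levels were compared as log2(value + 1). Cells were parted by *Dcn* at 1000. Shares have exact Clopper-Pearson 95% intervals, and a count of 0 allows up to 3 cells. Background percentages cover 11478 genes above 0 in at least 3 cells. CPM was computed from recovered reads, and exon lengths and gene names came from GENCODE vM21. RefSeq promoters were used on their own build. No coordinates were taken from mm9. The members and lists were chosen with earlier results of these data known. The genes named from a list were those above 0 in at least 10 cells with up to 5 of the largest shares of stromal and up to 3 of other cells, and for each member the 3 genes with the highest Spearman's rank correlation; other genes were named after their values had been seen. Receptor genes were named in full. One gene that this rule would name is not reported here. Alternatives were other detection levels, pseudocounts, cell groups and depths. Python 3.11.15, pandas 2.3.3, numpy 2.4.6, scipy 1.17.1 and matplotlib 3.10.9 were used.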

Additional observations from a re-analysis of the deposited data

How the results depend on the processing

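Under other detection levels, cell groups and depths, and with cell 50 left out (chosen after seeing the data), 9 members had the larger share in stromal cells, as in the values reported. The number of members higher in stromal cells by at least 1 was 7 or 8, since *Cxcl13* lay at the limit or, with genes above 0 in at least 10 cells, was not tested, and the median number of members per stromal cell was 3 to 4. None of the 80 recomputed differences changed direction, but that of *Cxcl12* fell short of 1 with a pseudocount of 10 (-0.83), a *Dcn* minimum of 100 (-0.65) and the 7 stromal genes (-0.69). It was larger with a pseudocount of 0.1 (-1.75) and without cells of fewer than 1000 genes (-1.78). The limit of 4 was passed by fewer members with a pseudocount of 10 and by more with 0.1, as given above. Of the recomputed shares 150 stayed within the interval of the reported share and 10 moved outside it, all at 10 or 100 reads and all of *Cxcl1* or of few-read cells of *Ccl7*, *Il33* and *Csf1*. The share of all genes higher in stromal cells by at least 1 ranged from 20.5% with a pseudocount of 10 to 60.3% among genes above 0 in at least 10 cells. No paired analysis was possible because the cells form 1 group and no result comes from a test. With no animal named, the spread between animals is unknown, and a cell at 0 may hold transcripts that were not read.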
